A study of Mus musculus with 16 samples.

Results

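The effect of N1-acetylspermidine (N1-AcSpd), an acetylated polyamine, was examined in α6+CD34- progenitors sorted from hair follicle stem cell (HFSC) organoids. The comparison used 8 of the 16 libraries of the series, 4 of treated and 4 of untreated CD34- cells, chosen by the treatment and cell marker entries of their labels. Organoid cultures from 4 C57BL/6J mice were kept for 2 weeks, left untreated or given N1-AcSpd for 72 h, and sorted by integrin α6 and CD34. Each mouse gave 1 library to each group, and the other 8 libraries are α6+CD34+ HFSCs of the same organoids, untreated or treated. The labels name no genetic change and call the untreated cells WT. The cells come from culture and stand for what the organoids hold rather than for skin. Tags of the 3′ end of each transcript were counted as unique molecular identifiers (UMIs), each UMI marking 1 captured molecule.

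Polyamines are small, positively charged metabolites that bind nucleic acids and are needed for growth and translation. The acetyltransferase encoded by Sat1 acetylates spermidine and spermine, after which the product is exported or oxidised, and the oxidation releases hydrogen peroxide and reactive aldehydes. In the hair follicle CD34 marks stem cells of the bulge, and integrin α6 anchors basal keratinocytes to the basement membrane through hemidesmosomes.

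The marker genes followed the sort. Cd34 ran from 3.05 to 3.26 CPM (the UMI count scaled to a common library total) in untreated and 2.88 to 3.65 CPM in treated CD34- libraries, against 43.4 to 57.8 and 45.5 to 64.1 CPM in CD34+ ones. Integrin α6 (Itga6) was at 62.8 ± 4.56 CPM in untreated and 54.1 ± 2.86 CPM in treated cells (SD, n = 4), and neither marker passed the test for treatment (edgeR adjusted p 0.98 and 0.132). The basal keratin Krt14 was at 5377 ± 194 CPM in untreated and 5418 ± 212 CPM in treated cells. Depth differed with treatment, since untreated CD34- libraries held 16179323 to 24451336 UMIs and treated ones 25202264 to 29074855, with no overlap. The share of UMIs on mitochondrial genes was 1.055% to 1.156% in untreated and 0.938% to 1.043% in treated libraries, again without overlap, and its part in the results was not tested. A tag could count for several genes, as 640 genes with 50 or more UMIs had counts identical to those of another gene in all 16 libraries.

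Few genes were called for N1-AcSpd in the main fit, and most of their changes were small. At an unadjusted edgeR p under 0.05 there were 13.6% of all genes, so few calls need not mean few changed genes. Among the increases were the glutathione transferases Gsta4 and Gsta1, the quinone reductase Nqo1, the carbonyl reductase Cbr3 and the polyamine acetyltransferase Sat1, and among the decreases the proteoglycan Cspg4, the anchoring fibril collagen Col7a1 and the hair follicle corepressor Hr. Of 19049 genes tested, 117 (0.614%) were called at an edgeR adjusted p under 0.05, 71 of them higher (0.373%) and 46 lower (0.241%). The median log2 fold change was 0.33 over the increases and -0.38 over the decreases, and 90 of the 117 were under 0.5 in size. In all 117 the treated libraries lay wholly above or wholly below the untreated ones, against 4.91% (above) and 4.13% (below) of all genes, a pattern that the call itself favours. With mouse as a block 351 genes (1.84%) were called, 116 of the 117 among them. Of all genes 1.06% were then called higher and 0.782% lower. At an unadjusted edgeR p under 0.05 without the block, 7.23% of all genes were higher and 6.37% lower. These shares are the background for the list counts below. The lists and their members were chosen with earlier results of these data known, so an excess over these shares is not separate support. Of the 117 genes 56 overlap another tested gene and 18 have counts near-identical to those of another gene, and the strand setting of the counting is not given in the sources used here. For genes not called in the main fit, the adjusted p with mouse as a block is printed below only where it was under 0.05.

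The count of calls depended on the fit and on single libraries. DESeq2 called 558 genes (2.93% of all tested), 325 of them higher and 233 lower, with 109 of the 117 among them. When edgeR was run on only the 8 CD34- libraries the count was 0, although 2627 genes were below 0.05 before adjustment, against 2592 in the fit of all 16. The count was 22, 77, 44 and 62 when the untreated CD34- library of mouse 1, 2, 3 or 4 was dropped, and 107, 25, 32 and 21 for the treated one. Leaving out the CD34+ libraries, which bear on the spread and the scaling but not on the difference itself, gave 72, 101, 93 and 74 for the untreated and 65, 62, 161 and 98 for the treated ones of mice 1 to 4. The set of tested genes was kept fixed in these fits. Without all 4 libraries of mouse 1, 2, 3 or 4 the count was 12, 5, 19 and 4. All 117 kept their sign in each of these fits, which was largely fixed beforehand, since each went the same way in 4 of 4 mice. Of the 20 fits that left out a library or a mouse, the call held in 17 for Nqo1, 17 for Hr, 18 for Cspg4, 16 for Cbr3, 13 for Gsta4, 7 for Gsta1, 4 for Col7a1, 4 for Klk10 and 1 for Sat1, with log2 fold changes of 0.87 to 1.15 for Gsta4, -1.09 to -0.94 for Cspg4, -0.85 to -0.64 for Col7a1 and 0.49 to 0.66 for Sat1. With the CD34- libraries thinned to the smallest total, 72 genes were called, 66 of them among the 117. Among the genes named by rule, Fscn1 (0.0544), Tmem147os (0.0598), Nrarp (0.0593), H60c (0.0797), Col7a1 (0.0543), St5 (0.236), Slco3a1 (0.0968), Shc4 (0.0901), Eid1 (0.0543), Ift52 (0.0734), G6pdx (0.0593), Plec (0.0734), Nfatc1 (0.12) and Bambi (0.159) then had an edgeR adjusted p above 0.05, given in parentheses.

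**Figure D1:**
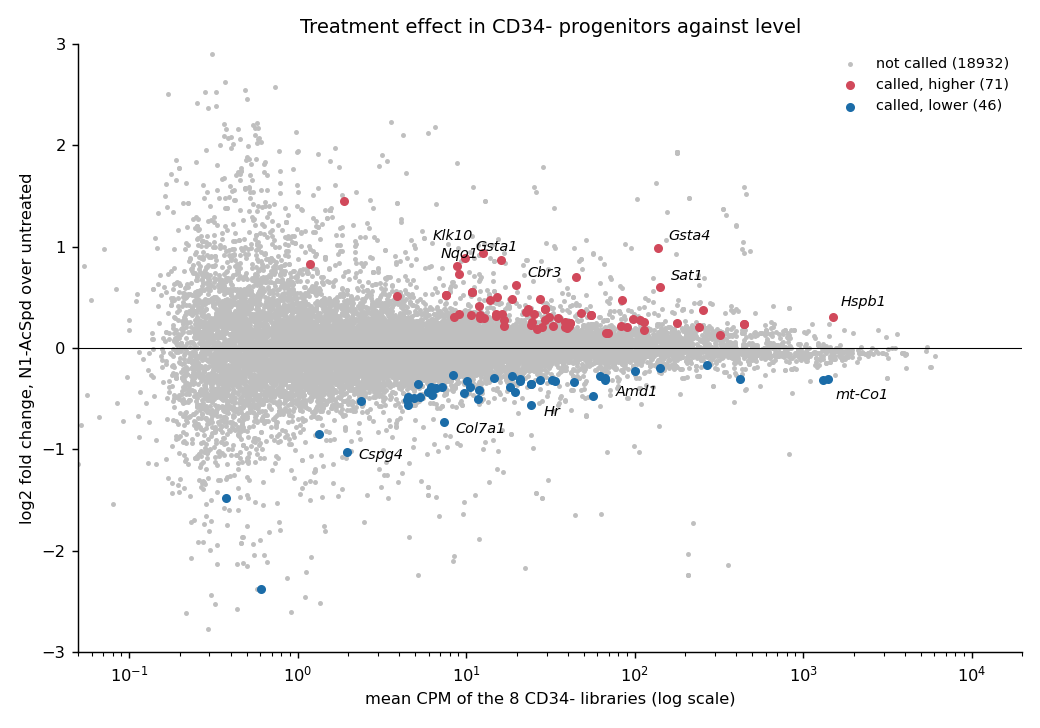
Log2 fold change of N1-AcSpd over untreated CD34- cells (y) against the mean CPM (x, log scale), with 1 point per tested gene, called increases in red and called decreases in blue. Most of the 71 increases and 46 decreases lie within 0.5 of 0, and 277 of the 19049 genes, 1 of them called, fall outside the axes. The y axis ends at 3 in both directions, and genes of very low CPM lie off the x axis.

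Of the polyamine genes, 1 rose and 2 fell. Sat1 (chrX:155213132-155216449 on GRCm38) encodes the acetyltransferase that makes N1-acetylspermidine in cells. It was at 123, 101.1, 123 and 102.3 CPM in the untreated libraries of mice 1 to 4 and at 209.2, 149.2, 169 and 155.9 CPM in the treated ones. Every treated library lay above every untreated one, with that of mouse 1 highest. Sat1 rose by 0.60 on the log2 scale (SE 0.12, edgeR adjusted p 0.0456), a fold of 1.52.

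Amd1 (chr10:40287458-40302186) encodes S-adenosylmethionine decarboxylase, which supplies the aminopropyl group of spermidine and spermine. It was at 74.2, 78.7, 71.8 and 70.1 CPM in untreated and 57.9, 62.8, 58.3 and 58.7 CPM in treated cells of mice 1 to 4. The groups did not overlap, and Amd1 fell by 0.31 (SE 0.06, adjusted p 0.0421). Amd2, a copy of it, had near-identical counts and fell by 0.30 (SE 0.06, adjusted p 0.0429), so that tags cannot be assigned to either gene. Over the 25 polyamine genes tested the median log2 fold change was 0.01, against 0.00011 over all genes. Among them 3 were higher and 4 lower at an unadjusted p under 0.05, where 7.23% and 6.37% of all genes were. Oaz1, the antizyme that restrains ornithine decarboxylase, was at 690.3 ± 9.64 CPM in untreated and 706 ± 17.9 CPM in treated cells (adjusted p 0.689). Eif5a, the translation factor that carries the spermidine-derived residue hypusine, was at 469.5 ± 8.34 CPM in untreated and 482 ± 12.1 CPM in treated cells (adjusted p 0.701), and the transporter chain Slc3a2 had a log2 fold change of -0.01 (adjusted p 0.999). Mat2a, which makes S-adenosylmethionine and was singled out after its values were seen, had one of 0.32 (adjusted p 0.182, and 0.0448 with mouse as a block).

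Of the enzymes that salvage the by-product of polyamine synthesis, Mtap was in the list and was not called, and those that follow were outside it. Apip (chr2:103073675-103092644), which acts in the methionine salvage pathway, was at 14.9, 14.8, 13.5 and 12.2 CPM in untreated and 9.2, 10, 10.2 and 9.72 CPM in treated cells. All treated values were below all untreated ones, and Apip fell by 0.50 (SE 0.07, adjusted p 0.00596). Aprt, which salvages the adenine set free in the same route and was singled out after its values were seen, rose by 0.25 (163 ± 3.79 to 193 ± 8.39 CPM, SE 0.03, adjusted p 0.00785), and overlaps Gm20388 on the opposite strand.

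The promoters of 4 genes described here are printed because many of the antioxidant genes that follow are known targets of the transcription factor NRF2, which binds antioxidant response elements. Their core, TGACNNNGC, was searched on both strands from 250 bases before to 50 after each RefSeq start (GRCm38.p6). The 250 bases before the start are given 5′ to 3′ on the strand of the gene, with a core in capitals, for Sat1 (chrX:155216450-155216699, minus strand), Nqo1 (chr8:107403206-107403455, minus strand), Col7a1 (chr9:108953336-108953585, plus strand) and Cspg4 (chr9:56864854-56865103, plus strand).
Sat1: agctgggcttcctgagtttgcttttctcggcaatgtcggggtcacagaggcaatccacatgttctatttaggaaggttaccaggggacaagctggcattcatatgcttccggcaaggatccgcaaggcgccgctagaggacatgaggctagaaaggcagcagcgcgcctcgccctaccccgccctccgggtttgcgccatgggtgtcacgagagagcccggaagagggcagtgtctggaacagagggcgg
Nqo1: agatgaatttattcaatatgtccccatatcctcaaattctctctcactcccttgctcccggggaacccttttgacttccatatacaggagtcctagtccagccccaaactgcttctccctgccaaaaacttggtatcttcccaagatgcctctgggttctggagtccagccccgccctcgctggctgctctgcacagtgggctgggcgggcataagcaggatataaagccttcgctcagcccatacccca
Col7a1: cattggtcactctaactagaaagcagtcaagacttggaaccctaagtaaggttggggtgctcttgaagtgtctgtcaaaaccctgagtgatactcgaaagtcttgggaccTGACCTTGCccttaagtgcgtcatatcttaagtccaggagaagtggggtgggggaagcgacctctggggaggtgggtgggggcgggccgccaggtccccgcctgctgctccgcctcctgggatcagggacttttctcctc
Cspg4: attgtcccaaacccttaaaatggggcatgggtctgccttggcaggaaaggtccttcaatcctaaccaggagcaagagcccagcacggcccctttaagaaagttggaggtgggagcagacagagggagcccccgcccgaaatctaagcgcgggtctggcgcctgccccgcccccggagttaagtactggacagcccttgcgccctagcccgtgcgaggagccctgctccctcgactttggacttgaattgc

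The core stood once in the Col7a1 window, 140 bases before the start, and not in the other 3 windows. RefSeq promoters were found for 56 of the 71 increased and 28 of the 46 decreased genes. The core was in 12.9% of the 70 promoters of increased genes and 6.25% of the 32 of decreased genes, against 13.9% of the promoters of all tested genes and 12.4% of all 32851 promoters. For NRF2 targets outside the glutathione transferases it was in 33.3% of 30 promoters and for the glutathione transferases in 12.5% of 32. AP-1 sites (TGANTCA) were in 7.14% of the promoters of increased, 3.12% of those of decreased and 5.59% of those of all tested genes, and 149 of the 4071 promoters with the core had an AP-1 site overlapping it.

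The glutathione transferase Gsta4 (chr9:78182774-78209349), which clears the lipid peroxidation aldehyde 4-hydroxynonenal, rose. It was at 68.4, 84.3, 94.1 and 120.5 CPM in the untreated libraries of mice 1 to 4 and at 173.1, 164, 195.8 and 197.5 CPM in the treated ones. Every treated library lay above every untreated one, and the untreated mice differed more among themselves than the treated ones. Gsta4 rose by 0.99 on the log2 scale (SE 0.16, adjusted p 0.0188, edgeR), a fold of 1.99. Gsta1 (chr9:78230656-78242684), of the same class, was at 5.81, 5.75, 7.23 and 8.62 CPM in untreated and 13.2, 12.1, 14 and 11.7 CPM in treated cells. Its groups did not overlap, and it rose by 0.89 (SE 0.17, adjusted p 0.0409).

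Of 24 glutathione transferase genes tested these 2 were called higher and 0 lower, 6 were higher and 3 lower at an unadjusted p under 0.05, and the median was 0.15. Of all tested genes 0.373% were called higher, and 7.23% were higher and 6.37% lower at an unadjusted edgeR p under 0.05. Gsto1 was at 245 ± 9.16 CPM in untreated and 281 ± 13.7 CPM in treated cells without overlap (adjusted p 0.079, and 0.00757 with mouse as a block), but had counts near-identical to those of Cfap43 on the opposite strand. Gstp1 (135 ± 2.82 to 152 ± 4.86 CPM, adjusted p 0.0655, and 0.0337 with mouse as a block) and Gstp2 (115 ± 3.14 to 129 ± 3.91 CPM, adjusted p 0.0686, and 0.0331 with mouse as a block) also had groups apart, and as close paralogs may share tags.

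Other antioxidant genes leaned the same way. Nqo1 (chr8:107388225-107403206), which reduces quinones and is a textbook target of NRF2, was at 7.14, 6.52, 7.1 and 6.59 CPM in untreated and 10.7, 11.2, 12.4 and 11 CPM in treated cells of mice 1 to 4. The groups lay far apart compared with the spread within them, and Nqo1 rose by 0.73 (SE 0.10, adjusted p 0.00835). Cbr3 (chr16:93683215-93690990), which reduces carbonyl groups, was at 13.8, 16.5, 13.8 and 18.3 CPM in untreated and 22.5, 25.2, 23.5 and 25.1 CPM in treated cells. It rose by 0.63 (SE 0.09, adjusted p 0.00932), again without overlap.

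The pentose phosphate pathway makes NADPH for reduction, and 3 of its enzymes rose by less. G6pdx, the first of them, was at 25.8, 28.5, 27.1 and 30 CPM in untreated and 33.8, 33.3, 35.2 and 35.4 CPM in treated cells and rose by 0.31 (SE 0.06, adjusted p 0.0347), but overlaps Ikbkg on the opposite strand, which rose by 0.25. Pgd, the second dehydrogenase of the pathway, was at 37.2, 36.5, 39.5 and 38.2 CPM in untreated and 43.8, 45.2, 45.6 and 42 CPM in treated cells and rose by 0.22 (SE 0.04, adjusted p 0.0323). Taldo1, the transaldolase, rose by 0.21 (83.1 ± 2.55 to 96.2 ± 3.28 CPM, SE 0.04, adjusted p 0.0375). Pgls, the lactonase between the 2 dehydrogenases, was outside the lists and singled out after its values were seen. It fell by 0.23 (108 ± 6.0 to 92.3 ± 3.45 CPM, SE 0.04, adjusted p 0.037), and overlaps Fam129c on the same strand.

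Nqo1, Cbr3, G6pdx, Pgd and Taldo1 were the 5 genes called higher of 27 NRF2 targets tested, with 0 called lower. Over all tested genes 0.373% were called higher. As this list was chosen with earlier results of these data known, its counts are not separate support. Among the 27, 12 were higher and 0 lower at an unadjusted p under 0.05, where 7.23% and 6.37% of all genes were. In 25 the log2 fold change was above 0, and in 11 all treated libraries lay above all untreated ones, against 4.91% of all genes. The median was 0.18, and 0.19, 0.23, 0.21 and 0.17 in mice 1 to 4. Of the most counted members, the ferritin chains Ftl1 (1306 ± 146 to 1540.3 ± 105 CPM, adjusted p 0.235, and 0.0259 with mouse as a block) and Fth1 (625 ± 51 to 679.6 ± 41.4 CPM, adjusted p 0.46), the peroxiredoxin Prdx1 (1117 ± 22.8 to 1213 ± 34.4 CPM, adjusted p 0.117) and thioredoxin Txn1 (2984 ± 163 to 3225 ± 241 CPM, adjusted p 0.53) had log2 fold changes of 0.24, 0.12, 0.12 and 0.11. Members singled out after their values were seen were thioredoxin reductase Txnrd1 at 0.49 (adjusted p 0.0925, and 0.0284 with mouse as a block), glutathione reductase Gsr at 0.44 (adjusted p 0.135, and 0.0423 with mouse as a block), the heme oxygenase Hmox1 at 0.48 (adjusted p 0.394) and the glutathione synthesis subunit Gclc at -0.23 (adjusted p 0.54). With mouse as a block 9 of the 27 were called higher and 0 lower.

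**Figure D2:**
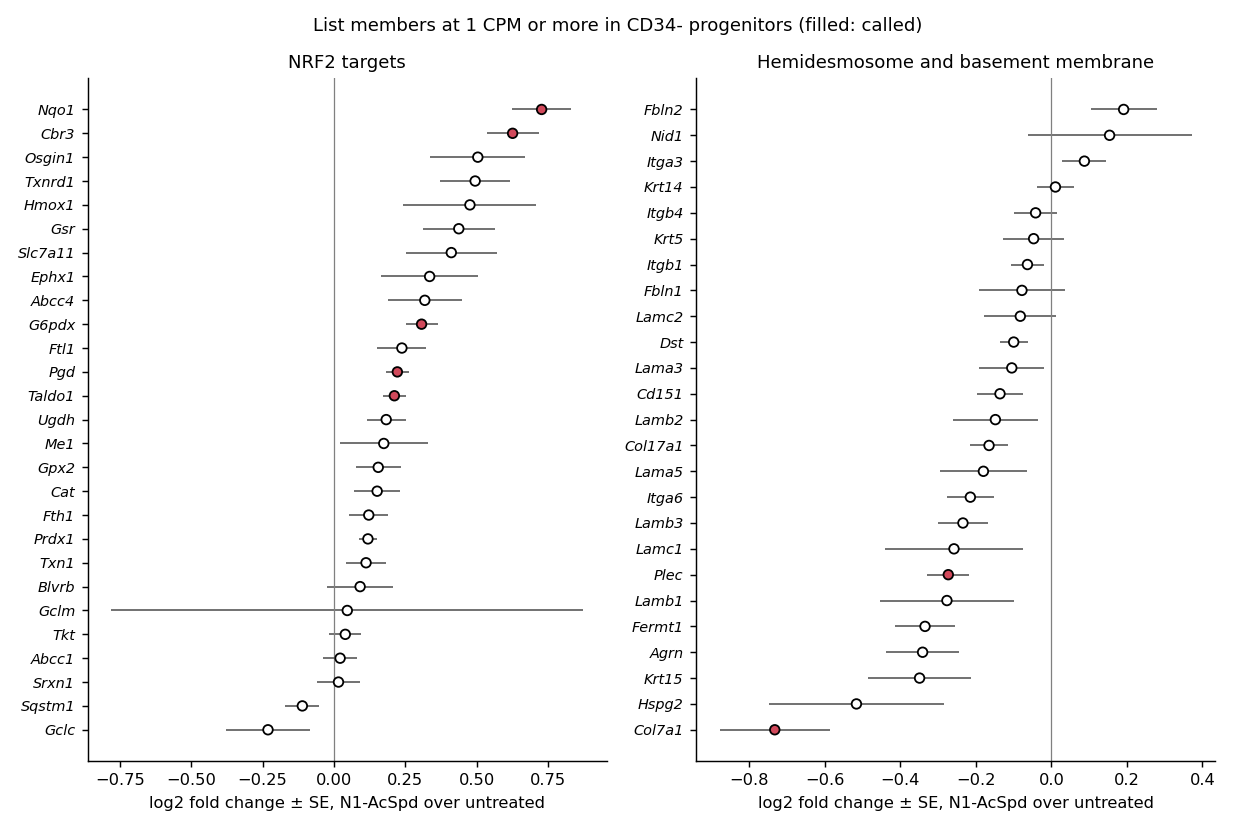
Log2 fold change ± SE (x) of 27 NRF2 targets (left) and of the 25 hemidesmosome and basement membrane genes at 1 CPM or more (right) in CD34- cells, with called genes filled. Most NRF2 targets lie to the right of 0, with 5 called, and most of the others to the left, with Col7a1 and Plec called.

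Other enzymes of aldehyde and glutathione metabolism were called outside the lists and singled out after their values were seen. Akr1b8, an aldo-keto reductase, rose by 0.47 (11.6 ± 1.04 to 16.1 ± 0.896 CPM, SE 0.06, adjusted p 0.00544). Esd, an S-formylglutathione hydrolase, rose by 0.38 (221 ± 12.5 to 287 ± 15.5 CPM, SE 0.05, adjusted p 0.00544) and Ethe1, a mitochondrial persulfide dioxygenase, rose by 0.34 (SE 0.04, adjusted p 0.00544). Gss, the glutathione synthetase, rose by 0.34 (SE 0.06, adjusted p 0.0261), but overlaps Acss2, which rose by 0.33. Aldose reductase Akr1b3 rose by 0.33 (SE 0.06, adjusted p 0.0421), with counts near-identical to those of Gm14546 on the opposite strand. The small heat shock protein Hspb1, highly counted, rose by 0.31 (1344 ± 68.5 to 1666 ± 95.1 CPM, SE 0.05, adjusted p 0.0237). The methionine sulfoxide reductase Msrb3, also outside the lists, went the other way. It fell by 0.84 (1.72 ± 0.285 to 0.955 ± 0.187 CPM, SE 0.17, edgeR adjusted p 0.0439), and overlaps Gm15910 on the opposite strand.

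Of 19 cytochrome P450 and aldehyde dehydrogenase genes tested, 1 was called higher and 0 lower, 4 were higher and 2 lower at an unadjusted p under 0.05, and the median was 0.11. The 1 called was Cyp2b10, a target of the xenobiotic receptor CAR in liver. It was at 14.4, 14.9, 14.6 and 18.2 CPM in untreated and 23.5, 20.4, 22.2 and 20.7 CPM in treated cells, with the untreated library of mouse 4 above the other untreated ones. Cyp2b10 rose by 0.48 (SE 0.08, adjusted p 0.0188). Por, which passes electrons to the cytochromes, was at 296 ± 6.94 CPM in untreated and 293 ± 6.71 CPM in treated cells, and has a near-identical partner, Gm5453.

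**Figure D3:**
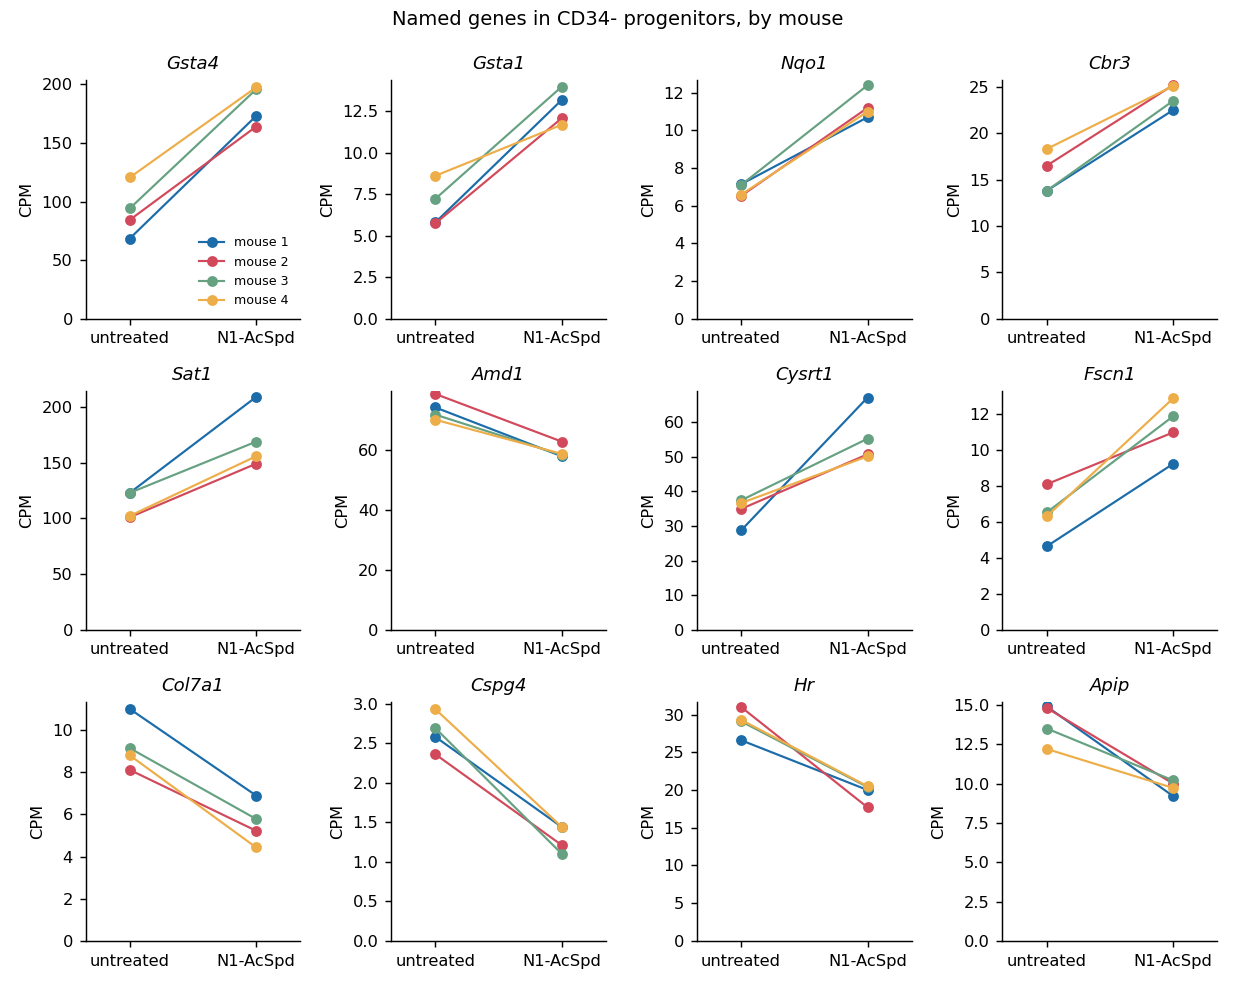
CPM (y, from 0) of 12 genes in the untreated and N1-AcSpd-treated CD34- libraries, with a line joining the 2 libraries of each mouse. In all 12 the 4 lines run the same way, upward for Gsta4, Gsta1, Nqo1, Cbr3, Sat1, Cysrt1 and Fscn1 and downward for Amd1, Col7a1, Cspg4, Hr and Apip.

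Genes that fasten keratinocytes to their matrix were lower in part. Col7a1 (chr9:108953586-108984875) encodes the collagen of the anchoring fibrils below the basement membrane. It was at 11, 8.11, 9.14 and 8.8 CPM in the untreated libraries of mice 1 to 4 and at 6.89, 5.22, 5.78 and 4.43 CPM in the treated ones, from 127 to 256 and 108 to 167 UMIs. Every treated library lay below every untreated one, and mouse 1 was highest in both groups. Col7a1 fell by 0.73 on the log2 scale (SE 0.15, edgeR adjusted p 0.0421). Plec, the plakin that links hemidesmosomes to keratin filaments, was at 65.9, 65.2, 72.5 and 68.9 CPM in untreated and 52.9, 55.2, 59.3 and 58.1 CPM in treated cells. Its groups did not overlap, and it fell by 0.27 (SE 0.06, adjusted p 0.048), but overlaps Parp10 on the same strand.

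Of 31 hemidesmosome and basement membrane genes tested these 2 were called lower and 0 higher, 1 was higher and 11 lower at an unadjusted p under 0.05, and 26 had a log2 fold change below 0. Of all 19049 tested genes 0.241% were called lower, and 9484 had a log2 fold change below 0. At an unadjusted edgeR p under 0.05, 7.23% of all genes were higher and 6.37% lower. The calls of Col7a1 and Plec held in 4 and 2 of the 20 fits that left out a library or a mouse, and after thinning to equal totals their adjusted p was 0.0543 and 0.0734. With mouse as a block 3 of the 31 were called lower and 0 higher, and DESeq2 called 7 lower and 0 higher. The median was -0.16, and -0.16, -0.09, -0.16 and -0.12 in mice 1 to 4. Over all genes the block called 0.782% lower, and DESeq2 called 2.93% in either direction. The transmembrane collagen Col17a1 was at 351 ± 8.82 CPM in untreated and 313 ± 16.6 CPM in treated cells without overlap (adjusted p 0.148). The plakin Dst was at 2211 ± 85.6 CPM in untreated and 2063 ± 59 CPM in treated cells (adjusted p 0.245) and the basal keratin Krt5 at 1164 ± 64.6 CPM in untreated and 1127 ± 57.8 CPM in treated cells (adjusted p 0.901). Fermt1, which activates integrins and was singled out after its values were seen, had a log2 fold change of -0.33 (adjusted p 0.0788, and 0.00831 with mouse as a block).

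Of 32 interstitial collagens, matricellular proteins and crosslinkers tested, 0 were called by edgeR, 0 were higher and 8 lower at an unadjusted p under 0.05, and the median was -0.19, with -0.19, -0.16, -0.23 and -0.17 in mice 1 to 4. DESeq2 called 0 higher and 1 lower, and edgeR with mouse as a block 0 higher and 3 lower. Over all genes 6.37% were lower at an unadjusted edgeR p under 0.05, and 0.782% were called lower with the block. The secreted matrix protein Tgfbi was at 74.8 ± 6.49 CPM in untreated and 63.7 ± 5.72 CPM in treated cells (adjusted p 0.261, and 0.0318 with mouse as a block) and Col18a1, of the basement membrane zone, at 64.8 ± 6.29 CPM in untreated and 56.5 ± 3.77 CPM in treated cells (adjusted p 0.275, and 0.0411 with mouse as a block). Fibronectin (Fn1) was at 44.7 ± 2.65 CPM in untreated and 47.4 ± 3.19 CPM in treated cells (adjusted p 0.764) and the lysyl oxidase Loxl2 at 147 ± 12.5 CPM in untreated and 163 ± 9.59 CPM in treated cells (adjusted p 0.453). The metalloproteinase inhibitor Timp3, singled out after its values were seen, had a log2 fold change of -0.53 (adjusted p 0.0837, and 0.0283 with mouse as a block).

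Cspg4 (chr9:56865033-56899870) encodes NG2, a chondroitin sulfate proteoglycan of the cell surface. It was at 2.58, 2.36, 2.69 and 2.93 CPM in untreated and 1.44, 1.21, 1.1 and 1.44 CPM in treated cells of mice 1 to 4, from 37 to 65 and 29 to 35 UMIs. Every treated library lay below every untreated one, and the log2 differences within mice ran from -1.22 to -0.80. Cspg4 fell by 1.03 (SE 0.12, adjusted p 0.00544, edgeR), a treated to untreated ratio of 0.49. In RNA from sorted cells, fewer cells with a transcript and less of it per cell cannot be told apart. CD34+ cells held more of it, 13.2 to 19.3 CPM untreated and 12.5 to 13.9 CPM treated. The Cd34 transcript differed by 0.03 (log2, SE 0.11) between treated and untreated CD34- cells. Any part of remaining CD34+ cells in the Cspg4 difference was not tested.

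Cspg4 also marks pericytes. Their markers Rgs5 and Kcnj8 had 0 UMIs in all 8 CD34- libraries and Abcc9 had at most 1. The smooth muscle actin Acta2 was at 15.1, 15.1, 8.36 and 9.66 CPM in untreated and 7.47, 6.21, 5.55 and 5.66 CPM in treated cells, with no overlap (log2 -0.95, SE 0.26, adjusted p 0.115). Notch3, another pericyte marker, went the other way, with 15 to 34 UMIs in untreated and 44 to 54 in treated libraries. Its log2 fold change was 0.34 to 0.55 over the 20 fits that left out a library or a mouse, and it was called in 0 of them. Of 15 cell-surface proteoglycan genes tested, Cspg4 was the 1 called lower and 0 were called higher, 1 was higher and 4 lower at an unadjusted p under 0.05, and the median was -0.01. Syndecans Sdc1 (199 ± 12.4 to 222 ± 10.7 CPM, adjusted p 0.201), Sdc4 (38.9 ± 4.84 to 32.9 ± 1.95 CPM, adjusted p 0.439) and Sdc2 (14.8 ± 0.231 to 15.6 ± 2.15 CPM, adjusted p 0.833) and the hyaluronan receptor Cd44 (71.7 ± 4.44 to 79 ± 17 CPM, adjusted p 0.689) did not pass.

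Genes of caveolae and of the actin cortex were among the calls. Cavin3, a coat protein of caveolae, was at 75.6, 64.1, 64.9 and 58.8 CPM in untreated and 49.7, 44.8, 45.4 and 49.8 CPM in treated cells. It fell by 0.47 (SE 0.09, adjusted p 0.0409), without overlap, and overlaps Gm45667 on the opposite strand. Fscn1 (chr5:142960343-142973185), which bundles actin filaments, was at 4.65, 8.11, 6.54 and 6.32 CPM in untreated and 9.25, 11, 11.9 and 12.9 CPM in treated cells and rose by 0.81 (SE 0.16, adjusted p 0.0448). Others were singled out after their values were seen. The caveolar protein Cavin1 fell by 0.33 (23.2 ± 1.93 to 18.4 ± 1.03 CPM, SE 0.07, adjusted p 0.048) and the nonmuscle myosin heavy chain Myh9 fell by 0.31 (35.9 ± 1.81 to 28.9 ± 0.978 CPM, SE 0.05, adjusted p 0.0188). The membrane repair protein Myof fell by 0.27 (SE 0.04, adjusted p 0.0188) and the invadopodium scaffold Sh3pxd2a fell by 0.38 (SE 0.05, adjusted p 0.00835).

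Some regulators of transcription fell. Hr (chr14:70552212-70573548), a corepressor without which hair is lost, was at 26.6, 31, 29.1 and 29.3 CPM in untreated and 20, 17.7, 20.4 and 20.5 CPM in treated cells. The groups lay well apart, and Hr fell by 0.56 (SE 0.08, adjusted p 0.00785). The high mobility group box protein Bbx fell by 0.45 (11.2 ± 0.603 to 8.25 ± 0.365 CPM, SE 0.08, adjusted p 0.0237). Ski, a repressor of TGF-β signalling, fell by 0.40 (7.51 ± 0.362 to 5.7 ± 0.122 CPM, SE 0.05, adjusted p 0.00544) and the corepressor scaffold Sin3a fell by 0.43 (6.78 ± 0.443 to 5.03 ± 0.341 CPM, SE 0.07, adjusted p 0.0125), both singled out after their values were seen. Sin3a overlaps Man2c1os on the opposite strand, which fell by 0.38.

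The other decreases named by size were less readily placed. Scaper, a cyclin A-binding protein of the endoplasmic reticulum, fell by 0.57 (5.36 ± 0.222 to 3.62 ± 0.119 CPM, SE 0.09, adjusted p 0.0188), and holds Gm23407 on the same strand. St5 fell by 0.52 (2.8 ± 0.257 to 1.94 ± 0.115 CPM, SE 0.10, adjusted p 0.0409), the organic anion transporter Slco3a1 fell by 0.51 (5.25 ± 0.50 to 3.69 ± 0.485 CPM, SE 0.10, adjusted p 0.0409) and Ift52, of the transport that builds cilia, fell by 0.46 (7.28 ± 0.433 to 5.3 ± 0.274 CPM, SE 0.09, adjusted p 0.0413). The Shc family adaptor Shc4 fell by 0.48 (SE 0.08, adjusted p 0.0188) and Eid1 fell by 0.48 (SE 0.10, adjusted p 0.048), and since they overlap on opposite strands their tags may be shared. Sp3os, which lies opposite Sp3, fell by 0.50 (SE 0.09, adjusted p 0.0285).

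Genes of stem cell identity mostly did not pass. Of 19 tested, 0 were called higher and 1 lower, 2 were higher and 5 lower at an unadjusted p under 0.05, and the median was -0.13. The 1 was Nfatc1, which holds bulge stem cells in quiescence, at 5.33, 6.58, 5.85 and 5.6 CPM in untreated and 4.29, 4.44, 4.91 and 4.64 CPM in treated cells (log2 -0.35, SE 0.07, adjusted p 0.048). Its call held in 1 of the 20 fits that left out a library or a mouse, and its adjusted p was 0.12 after thinning. With mouse as a block 1 of the 19 was called higher and 1 lower. The bulge keratin Krt15 was at 38.6 ± 3.37 CPM in untreated and 30.3 ± 2.45 CPM in treated cells (adjusted p 0.278) and Sox9, needed for bulge stem cells, at 34.9 ± 3.92 CPM in untreated and 29.2 ± 3.9 CPM in treated cells (adjusted p 0.465). The BMP targets Id2 (18.4 ± 2.25 to 19.5 ± 3.84 CPM, adjusted p 0.925) and Id3 (99.7 ± 7.33 to 116 ± 14.6 CPM, adjusted p 0.235, and 0.0496 with mouse as a block) had log2 fold changes of 0.08 and 0.23. Of 14 genes of the outer root sheath, inner bulge and isthmus tested, 0 were called by edgeR, 2 were higher and 2 lower at an unadjusted p under 0.05, and the median was -0.01, while DESeq2 called 2 higher and edgeR with mouse as a block 1 higher. Plet1, an isthmus marker, had a log2 fold change of 0.50 (adjusted p 0.15, and 0.0284 with mouse as a block), with counts near-identical to those of Plet1os.

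Genes of epidermal differentiation leaned upward, unevenly over the mice. Klk10 (chr7:43781035-43785410), a kallikrein protease, was at 6.54, 7.47, 10.3 and 10.2 CPM in untreated and 19.6, 13.2, 16.7 and 16.7 CPM in treated cells. The groups did not overlap, and the log2 difference was 1.57 in mouse 1 and 0.70 to 0.81 in the others. Klk10 rose by 0.94 (SE 0.18, adjusted p 0.042), and overlaps 2310002F09Rik on the opposite strand, which rose by 0.87. Of 17 kallikreins and inhibitors tested it was the 1 called higher, with 0 lower, 5 were higher and 0 lower at an unadjusted p under 0.05, and the median was 0.31. The shares over all genes were 0.373% called higher, and 7.23% higher at an unadjusted edgeR p under 0.05. By mouse the median was 0.96, 0.41, 0.12 and 0.06. The corneodesmosome protease Klk7 had a log2 fold change of 0.46 (adjusted p 0.367) and its inhibitor Spink5 one of 0.09 (adjusted p 0.953). Stfa1 and Stfa3, also among the 4 most counted, did not rise clearly. Over the 20 fits that left out a library or a mouse, Stfa1 ran from -0.13 to 0.14 and Stfa3 from -0.45 to -0.12. Both were called in 0 of them. Of the 17 genes 15 had a log2 fold change above 0 and 2 below.

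Cysrt1 (chr2:25238818-25242452), which binds late cornified envelope proteins, was at 28.7, 34.9, 37.4 and 36.6 CPM in untreated and 67.1, 50.7, 55.2 and 50.1 CPM in treated cells. Mouse 1 had both the lowest untreated and the highest treated value. Cysrt1 rose by 0.70 (SE 0.10, adjusted p 0.0107), and overlaps Rnf208 on the opposite strand. Of 51 cornified envelope and suprabasal keratin genes tested, 0 were called by edgeR, 16 were higher and 2 lower at an unadjusted p under 0.05, while by DESeq2 the calls were 11 higher and 0 lower and by edgeR with mouse as a block 2 higher and 0 lower. The median was 0.44, but 1.14, 0.39, 0.04 and 0.02 in mice 1 to 4, so that the shift was carried by mice 1 and 2. Over all genes 7.23% were higher and 6.37% lower at an unadjusted edgeR p under 0.05. The block called 1.06% of all genes higher, and DESeq2 called 2.93% in either direction. The envelope precursor Sprr2a2 was at 6089.7 ± 289 CPM in untreated and 5349 ± 836 CPM in treated cells (adjusted p 0.351), with the treated library of mouse 1 at 6600 CPM and the others at 4830 to 5010, and may share tags with its close paralogs. Over the 20 fits that left out a library or a mouse, Sprr2a1 ran from -0.30 to -0.12 and Sprr2a3 from -0.31 to -0.12. Krtdap ran from -0.02 to 0.25. Of the 51 genes 42 had a log2 fold change above 0 and 9 below. Members singled out after their values were seen were involucrin (Ivl, log2 0.60, adjusted p 0.0686), the barrier transcription factor Grhl3 (0.65, adjusted p 0.0989), corneodesmosin (Cdsn, 0.78, adjusted p 0.114) and suprabasin (Sbsn, 0.36, adjusted p 0.0778, and 0.0466 with mouse as a block).

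Of 20 wound keratins and alarmins tested, 0 were called by edgeR, 1 higher with mouse as a block and 2 by DESeq2, 7 were higher and 0 lower at an unadjusted p under 0.05, and the median was 0.18, with 0.48, 0.26, 0.09 and 0.14 in mice 1 to 4. The keratins Krt6a (3439 ± 308 to 3785 ± 257 CPM, adjusted p 0.469), Krt16 (797 ± 107 to 899.6 ± 58.5 CPM, adjusted p 0.475) and Krt17 (2599 ± 136 to 2948 ± 171 CPM, adjusted p 0.125) had log2 fold changes of 0.14, 0.18 and 0.18. The protease inhibitor Slpi, singled out after its values were seen, was at 0.67 (adjusted p 0.0939, and 0.032 with mouse as a block).

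**Figure D4:**
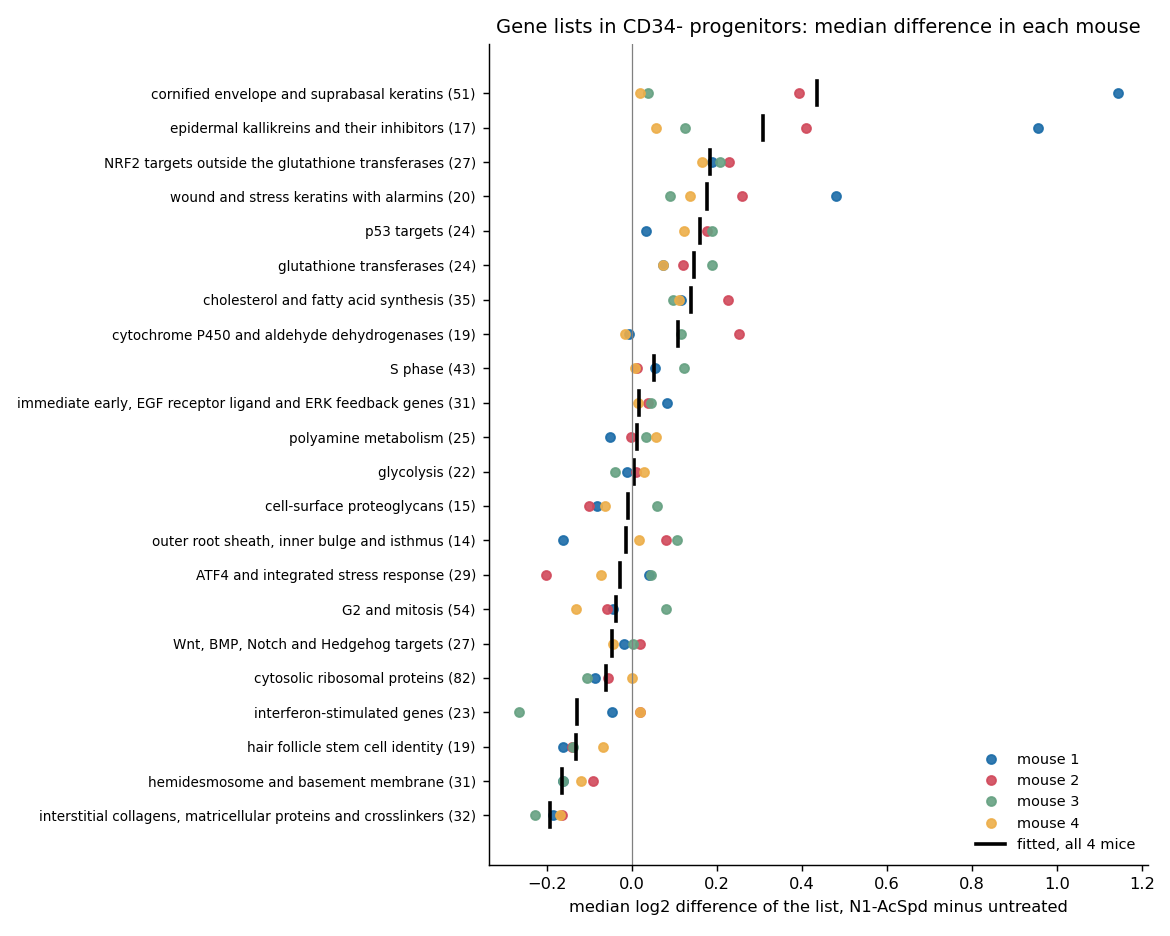
Median log2 difference (x) of each gene list between N1-AcSpd-treated and untreated CD34- cells, with 1 point per mouse and a bar for the median of the fitted values. The NRF2 targets lie between 0.17 and 0.23 in the 4 mice, whereas the cornified envelope genes run from 0.02 in mouse 4 to 1.14 in mouse 1.

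Of 27 Wnt, BMP, Notch and Hedgehog targets tested, 2 were called higher and 0 lower, 3 were higher and 2 lower at an unadjusted p under 0.05, and the median was -0.05. Nrarp, a Notch target that damps Notch signalling, was at 5.68, 6.32, 6.37 and 6.5 CPM in untreated and 9.78, 8.24, 9.01 and 8.78 CPM in treated cells. It rose by 0.53 (SE 0.11, adjusted p 0.0462), with counts near-identical to those of Gm38287 on the opposite strand. Bambi, a decoy receptor of the TGF-β family, rose by 0.83 (0.848 ± 0.13 to 1.51 ± 0.201 CPM, SE 0.17, adjusted p 0.048), from 14 to 23 and 35 to 47 UMIs, but its call held in 1 of the 20 fits that left out a library or a mouse. Hes1, a general Notch target, was at 85.9 ± 7.86 CPM in untreated and 85.5 ± 3.37 CPM in treated cells (adjusted p 1).

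Of 31 immediate early, EGF receptor ligand and ERK feedback genes tested, 0 were called by edgeR, 2 higher with mouse as a block and 2 by DESeq2, 5 were higher and 1 lower at an unadjusted p under 0.05, and the median was 0.02. The AP-1 subunit Junb was at 159 ± 5.11 CPM in untreated and 189.8 ± 17 CPM in treated cells (adjusted p 0.0769, and 0.0237 with mouse as a block), and overlaps Prdx2 on the opposite strand. The epidermal growth factor family ligand Nrg1 rose by 0.36 (19.8 ± 0.498 to 25.4 ± 1.93 CPM, SE 0.07, adjusted p 0.0413) and the prostaglandin E synthase Ptges rose by 0.48 (23 ± 2.75 to 32.2 ± 1.5 CPM, SE 0.09, adjusted p 0.0384), both singled out after their values were seen. H60c, a ligand of the lymphocyte receptor NKG2D, rose by 0.52 (3.2 ± 0.11 to 4.58 ± 0.384 CPM, SE 0.10, adjusted p 0.0421). Gapdhs, the glyceraldehyde phosphate dehydrogenase of sperm, rose by 0.55 (SE 0.09, adjusted p 0.0188), with counts near-identical to those of Tmem147os on the opposite strand.

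Lists of growth and stress held 0 edgeR calls without the block. With mouse as a block 3 ribosomal protein genes were called lower, 1 p53 target higher and 2 genes of cholesterol and fatty acid synthesis higher, and 0 in the other lists here. At an unadjusted p under 0.05, 43 S phase genes (median 0.05, 3 higher and 0 lower) and 54 G2 and mitosis genes (median -0.04, 1 higher and 2 lower) were counted, and DESeq2 called 0 in both. Pcna, the polymerase clamp, was at 63 ± 1.1 CPM in untreated and 65.7 ± 5.49 CPM in treated cells (adjusted p 0.671). Of 82 cytosolic ribosomal protein genes (median -0.06) 74 had a log2 fold change below 0, 1 was higher and 27 lower at an unadjusted p under 0.05. DESeq2 called 8 lower. Over all genes 7.23% were higher and 6.37% lower at an unadjusted edgeR p under 0.05, and DESeq2 called 2.93% in either direction. For 24 p53 targets (median 0.16, 7 higher and 1 lower) DESeq2 called 2. Their member Cdkn1a, the cell cycle inhibitor p21, was at 101 ± 9.3 CPM in untreated and 113 ± 6.33 CPM in treated cells (adjusted p 0.428). The same counts were taken for 29 genes of the ATF4 stress response (median -0.03, 3 higher and 2 lower), 35 of cholesterol and fatty acid synthesis (median 0.14, 2 higher and 0 lower), 22 of glycolysis (median 0.00, 2 higher and 1 lower) and 23 interferon-stimulated genes (median -0.13, 2 higher and 3 lower), among which DESeq2 called 1 in fatty acid synthesis and 0 in the others. The fatty acid elongase Elovl1 had a log2 fold change of 0.29 (adjusted p 0.0781, and 0.041 with mouse as a block).

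Transcripts of the mitochondrial genome were among the decreases, singled out after their values were seen. The cytochrome c oxidase subunit mt-Co1 fell by 0.31 (1559 ± 110.0 to 1259.5 ± 70.2 CPM, SE 0.06, adjusted p 0.0421) and the complex I subunit mt-Nd2 fell by 0.20 (152 ± 5.46 to 132 ± 4.9 CPM, SE 0.03, adjusted p 0.0188). They were the 2 mitochondrial genes among the 117. The called pseudogenes Gm29216 (1444.7 ± 107 to 1162.6 ± 59.4 CPM) and Gm13340 (465.6 ± 40.2 to 375.7 ± 21.6 CPM) each fell by 0.31 too. Whether they share tags with mitochondrial genes was not tested. The mitochondrial share of UMIs, given above, was lower in treated libraries too, and its part was not tested.

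Among markers of other cell types edgeR called 0 in CD34- cells, with or without mouse as a block, and DESeq2 called 1, Acta2 lower (DESeq2 adjusted p 0.0129). Cspg4, which pericytes also express and which fell, was not in these lists. Of 11 fibroblast markers 4 were tested (median log2 fold change -0.23), with summed levels of 2.62 to 11.4 CPM in untreated and 2.95 to 6.54 CPM in treated libraries. Of 9 melanocyte markers 4 were tested (median log2 fold change -0.05), with sums of 29.7 to 31 CPM in untreated and 28 to 31 CPM in treated libraries, and Kit, Sox10 and Slc45a2 were at 0 in all 8. Of 12 immune markers 4 were tested (median log2 fold change -0.01), with sums of 9.01 to 12.1 CPM in untreated and 9.8 to 11.6 CPM in treated libraries, and Cd207, Cd74, Lyz2 and Tpsb2 were at 0 in all 8. Of 9 endothelial and pericyte markers 4 were tested (median log2 fold change 0.21), with sums of 1880 to 2060 CPM in untreated and 1880 to 1990 CPM in treated libraries, and the endothelial cadherin Cdh5 was at 0 in all 8. Nearly all of those sums was Pecam1, whose counts were near-identical to those of Phkg1, so that they cannot be assigned. Of 12 sebocyte markers 6 were tested (median log2 fold change 0.29), with sums of 117 to 129 CPM in untreated and 131 to 135 CPM in treated libraries that did not overlap, and Mc5r and Awat1 were at 0 in all 8. Their part in the results was not tested.

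The 117 genes were then read in the CD34+ HFSCs, which have libraries of their own but come from the same mice and organoids. There 112 (95.7%) had the same sign, against 65.2% of all tested genes. With the same sign and an unadjusted p under 0.05 there were 90 (76.9%), against 11.3%. Both fractions were tested in 1 fit with 1 spread per gene. A gene called for its low spread in that fit therefore tends to a low p in CD34+ cells too, and the 76.9% is not separate support. In CD34+ cells 62 genes (0.325%) were called by edgeR, 19 of them among the 117. Nqo1 was at 11.4, 10.9, 13.4 and 10.5 CPM in untreated and 18.3, 15.8, 22.1 and 16 CPM in treated CD34+ cells (log2 0.64, SE 0.10, adjusted p 0.0186). Cbr3 (log2 0.60, adjusted p 0.0144), G6pdx (0.50, adjusted p 0.00502) and Pgd (0.28, adjusted p 0.00868) were called in both fractions too. The other markers of the response had the same sign without passing, with log2 fold changes in CD34+ cells of 0.80 for Gsta4 (adjusted p 0.060), 0.45 for Sat1 (adjusted p 0.144), -0.51 for Col7a1 (adjusted p 0.167) and -0.26 for Cspg4 (adjusted p 0.336). The NRF2 targets had a median of 0.21 in CD34+ cells with 7 called higher, and the hemidesmosome and basement membrane genes one of -0.07 with 0 called by edgeR.

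A gene called in 1 fraction is not thereby shown to differ between them. In the test of that difference, the interaction, 0 genes passed by edgeR and 62 by DESeq2, and 799 (4.19%) were below 0.05 in edgeR before adjustment. Of the 117 genes 36 were under 0.05 before adjustment. The interaction contains the CD34- difference by which these genes were called, and uses the same spread. Their call therefore favours a low interaction p, and the 36 are not separate support for a difference between fractions. Cyp2b10 was at 10, 9.33, 8.84 and 10.1 CPM in untreated and 8.28, 7.91, 8.59 and 9.1 CPM in treated CD34+ cells (log2 -0.18, SE 0.08), and its interaction had an unadjusted p of 4.31e-05 and an edgeR adjusted p of 0.411. Cspg4 (unadjusted edgeR p 0.000337) and Klk10 (unadjusted edgeR p 0.00337, log2 -0.02 in CD34+ cells) each had an adjusted p of 1. The 5 genes of opposite sign in CD34+ cells were Cyp2b10, Klk10, 2310002F09Rik, Cmtm8 and C030014I23Rik, with CD34+ log2 fold changes between -0.18 and 0.00.

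**Figure D5:**
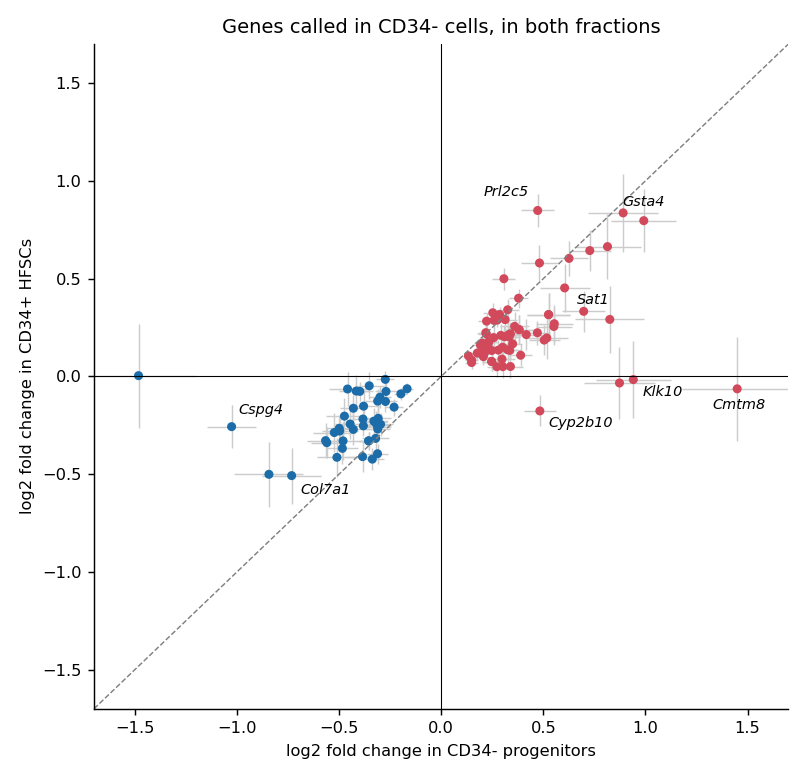
Log2 fold change ± SE of N1-AcSpd over untreated cells for the genes called in CD34- cells, in CD34- progenitors (x) and in CD34+ HFSCs (y). Of the 117 genes 115 are inside the axes, and most lie in the quadrants of equal sign. Cyp2b10, Klk10, Cmtm8 and 2310002F09Rik are below 0 in CD34+ cells only, and C030014I23Rik is just above 0 in CD34+ cells only.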

How the data were processed

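The strand setting and annotation release of the counting are not given in the sources used here. Total RNA of sorted cells was reverse transcribed with barcoded primers, pooled and sequenced from the 3′ end. The authors deposited UMI counts per gene as 1 table of 16 libraries. Per the study's methods and processing notes, reads were demultiplexed, placed on mm10 with kallisto 0.45.0, assigned to genes with bedtools, and unique UMI tags counted (FastQC 0.11.7 for quality). Empty cells (156050) were read as 0. Symbols and coordinates came from GENCODE release M21 (GRCm38) for 32895 of 32989 identifiers, and those without a symbol held 0.125% of counts.

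The test was edgeR's quasi-likelihood F test (edgeR 4.0.16, R 4.3.3; TMM scaling, mean count of at least 5 over 16 libraries, 1 mean per group, Benjamini-Hochberg over 19049 genes, adjusted p under 0.05). An SE was taken as |log2 fold change| over √F. CPM use the TMM-scaled totals and are given as mean ± SD of 4. Near-identical means counts within 5% or 1 UMI in all 16 libraries, and overlaps are of gene bodies. DESeq2 1.42.0 was an alternative. The code was tested on simulated counts.

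The same replicate number marks the same mouse per the labels, so the numbers pair libraries. Over 24 same-mouse pairs the deviations from group means correlated at 0.013 on average (-0.069 to 0.086). Replicate libraries differed by more than counting noise (chi-square per degree of freedom 28.0 to 41.7). Named genes were the 12 largest increases and decreases among called genes that averaged 50 or more UMIs and went one way in 4 of 4 mice (pseudogenes and unnamed models left out), the marker genes, and in each list the called members and the 4 most counted. The members and lists were chosen with earlier results of these data known. Depth is 16179323 UMIs or more per CD34- library, and fold changes of genes under about 1 CPM rest on few UMIs.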

Additional observations from a re-analysis of the deposited data

Results flagged for a closer look

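In each group of 4 CD34- libraries, a library was set apart where its gap to the nearest other library, over the range of the group, passed the 95% critical value of Dixon's test. Of 282 groups, from 141 genes in untreated and treated cells, 22 (7.8%) passed, where chance alone gives about 1 in 20. Rrm2b, a p53 target, was at 241 CPM in the treated library of mouse 1 and at 1200, 1210 and 1220 CPM in the other treated ones.

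Among called genes, Amd1 was at 62.8 CPM in the treated library of mouse 2, above the others, and Taldo1 at 91.3 CPM in that of mouse 1, below them. Cyp2b10 was at 18.2 CPM in the untreated library of mouse 4, above the others, as were Gapdhs and Tmem147os at 9.7 CPM, which share near-identical counts. In the treated library of mouse 1, high values were those of Sprr2a2 (6600 CPM), Krt6b (892 CPM), Elovl1 (101 CPM) and Cidea (4.71 CPM). The treated library of mouse 3 was high for Itga6 (58.4 CPM), Itgam (4.98 CPM) and Dct (0.837 CPM) and low for Ier2 (109 CPM). The treated library of mouse 4 was low for Por (283 CPM) and high for Ldha (1460 CPM), and that of mouse 2 low for Gapdh (1220 CPM). In untreated cells mouse 4 was high for Cdh1 (57.1 CPM) and Ptprc (2.03 CPM) and low for Far2 (23.6 CPM), and mouse 2 was low for Col17a1 (338 CPM) and Notch3 (0.958 CPM).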

How the results depend on the processing

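The number of genes called in CD34- cells, 117, was 35 without a filter on low counts, 351 with mouse as a block (replicate block), 0 from the 8 CD34- libraries alone with or without the block, 558 with DESeq2, 949 with DESeq2 and the block, and 72 after thinning. It was 347 at an adjusted p under 0.1 and 18 under 0.01. A robust spread, tried after seeing the data, gave 408 with the block and 0 from the 8 libraries alone. Without 1 library it ran from 21 to 161, and without 1 mouse from 4 to 19. In CD34+ cells the 62 calls became 152 with the block, 3 from 8 libraries alone and 423 with DESeq2, 20 to 85 without 1 library and 3 to 12 without 1 mouse. The interaction, 0 with edgeR also with the block, had 62 calls with DESeq2 and 206 with DESeq2 and the block, 0 to 8 without 1 library and 2 to 11 without 1 mouse. Where an arm kept 3 libraries the spread was pooled over the groups. The cause of these shifts was not tested.

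Over the named genes and all settings 4029 values kept their side of the threshold, 539 lost the call and 66 gained it. Of the list medians 777 stayed within the spread between mice and 33 moved. None changed sign among called values, which was largely fixed beforehand because the groups of the called genes did not overlap. With mouse as a block no named gene lost its call and 10 gained one (Gsto1, Gstp1, Gstp2, Ftl1, Tgfbi, Col18a1, Id3, Plet1, Elovl1 and Junb). The rank of genes under about 1 CPM is limited by depth.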
